A study of Mus musculus with 24 samples.

Results

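Pmp22, Mbp, Prx, S100b, Mal and Sox10, 6 genes of the Schwann cell and its myelin sheath, were read in mouse triceps surae, the calf muscle group, across 8 groups of genotype, treatment and day. They were chosen by annotated gene symbol. Of the 6 genes, 5 had a probe on the Illumina beadchip, with 11 probes among 46632, and Prx was not analysed here for want of a probe of that name. A probe was kept for testing when its signal stood above the negative controls (detection p under 0.05) on at least 3 of 24 arrays. Kept were 8 of the 11 probes, which left 4 genes (Pmp22, Mbp, Mal and Sox10) among 16262 tested features, of which 11010 were named genes.

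All animals were C57/Bl6 mice of 4 months. Wild-type mice and MuRF1 knockout mice, which lack the muscle ubiquitin ligase gene Trim63, were given 3 mg/kg water soluble dexamethasone in drinking water for 3 or 14 days, or were housed in parallel without it. Each of the 8 groups held 3 arrays: untreated and dexamethasone at 3 days and at 14 days, in wild type and in knockout. Each day had its own untreated arrays, so 3-day and 14-day values are never set against a shared control. The labels do not say that replicates are separate animals, so a p-value covers the spread among the arrays as deposited, whether technical or biological. Values are normalized log2 signals, errors after ± are SDs of 3 arrays, and adjusted p-values are from limma over all 16262 features with a threshold of 0.05.

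Schwann cells wrap the motor and sensory axons that run through a muscle, and the myelinating ones build a sheath of tightly packed membrane. Mbp encodes myelin basic protein, which holds the inner faces of that membrane together, Pmp22 a membrane protein of compact peripheral myelin whose gene dosage is changed in inherited neuropathies, and Mal a small protein of myelin lipid rafts. Prx encodes periaxin, a scaffold of the Schwann cell's outer membrane, S100b a calcium-binding protein widely used as a Schwann cell marker, and Sox10 the transcription factor that Schwann cells need at every stage. Pmp22 is also made by fibroblasts, endothelial cells and other cells outside nerve. In whole muscle, fewer Schwann cells and less RNA per Schwann cell cannot be told apart.

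The sources held start-site sequence for Pmp22, Prx, S100b and Mal (RefSeq, GRCm38.p6, 250 bases before to 50 after the start), with 4 starts for Pmp22 on chromosome 11, all on the plus strand. Its first and last windows are shown because Pmp22 is the member read by a pair of probes on all 24 arrays, and because the windows differ in make-up. Capitals mark CG pairs.
Pmp22 window 1, chr11:63128732-63129031: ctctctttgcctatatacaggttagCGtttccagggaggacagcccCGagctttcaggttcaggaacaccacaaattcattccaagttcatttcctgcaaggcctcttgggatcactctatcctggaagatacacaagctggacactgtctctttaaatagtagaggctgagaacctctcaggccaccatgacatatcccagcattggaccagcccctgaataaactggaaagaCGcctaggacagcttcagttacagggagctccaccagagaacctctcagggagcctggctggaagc
Pmp22 window 4, chr11:63132553-63132852: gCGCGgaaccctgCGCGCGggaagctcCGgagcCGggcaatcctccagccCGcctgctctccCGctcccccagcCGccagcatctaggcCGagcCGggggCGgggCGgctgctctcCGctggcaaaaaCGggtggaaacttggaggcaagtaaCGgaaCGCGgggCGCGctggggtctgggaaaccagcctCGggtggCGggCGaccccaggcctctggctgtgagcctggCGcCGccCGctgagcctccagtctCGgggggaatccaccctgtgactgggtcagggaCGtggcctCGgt
The first window held 3 CG pairs at a GC content of 50.7%, and the last held 30 at 72.3%. Over 32851 windows in the table the median was 7 CG pairs, 31.4% of windows had no more than the first Pmp22 window, and 11.7% had at least as many as the last. The SOX core ACAAAG (in 18.7% of all windows), its form ACAATG (12.6%), the EGR core GCGTGGGCG (0.612%) and the glucocorticoid receptor palindrome, GNACA and TGTNC spaced by 3 bases (0.475%), each searched on both strands, had no match in any of the 7 windows of Pmp22, Prx, S100b and Mal. Which start the transcripts read by either Pmp22 probe came from was not tested.

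The arrays were of like brightness, with median raw signals of 81.0 to 101.9 and 29% to 36.1% of probes detected. Trim63 lay between 8.07 and 9.95 on every wild-type array and between 4.46 and 5.16 on every knockout array. Fkbp5, a glucocorticoid-induced chaperone, was higher with dexamethasone by 2.89 on the log2 scale (adjusted p = 1.04e-14), with the lowest treated array (9.42) above the highest untreated one (7.32). Replicate 3 of the knockout dexamethasone group at 3 days stood apart on the leading principal component (28.2% of the variance), at 70.6 against -32.0 to 23.8 for the other 23 arrays, and the estimates nearest to the threshold are also given without it.

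Detection set what could be read of each gene. Mbp was detected on all 24 arrays by its brightest probe (ILMN_2737200), and Pmp22 on all 24 by both of its probes. Its brighter probe, ILMN_1228535, stands for Pmp22 below unless the second probe, ILMN_2661299, is named. Sox10 was detected on 22 arrays, and the arrays without detection were replicates 2 and 3 of the untreated knockout group at 3 days. Mal was detected on 15 arrays by one probe (ILMN_1224029), while its other probes were detected on 1 and 0 arrays and left out of the tests. S100b was detected on 0 of 24 arrays, with values between 4.16 and 4.52, so it was not above background on any array. The remaining 3 Mbp probes, 2 of them annotated to other transcript records, were detected on 5, 8 and 6 arrays, with mean signals of 4.60 to 4.64, near background.

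Mbp had the widest spread of the members. In wild type it was 8.83, 9.47 and 8.36 without treatment at 3 days (8.89 ± 0.55) and 8.95, 8.18 and 9.23 with dexamethasone (8.79 ± 0.55). At 14 days the wild-type values were 9.34, 8.35 and 9.16 untreated (8.95 ± 0.53) and 9.72, 9.54 and 8.75 with dexamethasone (9.34 ± 0.52). The 3 arrays of each wild-type group spread widely, and treated and untreated arrays overlapped on both days. In knockout muscle Mbp was 8.14, 8.02 and 8.53 untreated at 3 days (8.23 ± 0.26) and 8.92, 8.89 and 8.51 with dexamethasone (8.78 ± 0.23). At 14 days the knockout arrays read 8.69, 8.58 and 8.95 untreated (8.74 ± 0.19) and 9.12, 8.21 and 9.36 with dexamethasone (8.90 ± 0.61). The lowest group, untreated knockout at 3 days, did not overlap the next in order, untreated knockout at 14 days, and the 6 other neighbouring pairs of groups overlapped. From the lowest to the highest array Mbp spanned 1.70 log2 units, or 3.25-fold.

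Pmp22, by its brighter probe, was more even and was ordered by genotype. Its wild-type values at 3 days were 9.02, 9.66 and 8.90 untreated (9.19 ± 0.40) and 9.38, 8.85 and 9.45 with dexamethasone (9.23 ± 0.33). At 14 days they were 9.25, 8.99 and 9.53 untreated (9.26 ± 0.27) and 9.45, 9.53 and 8.62 with dexamethasone (9.20 ± 0.50). These 4 wild-type means lay between 9.19 and 9.26, a span smaller than the SD of any of the groups. In knockout muscle at 3 days Pmp22 was 8.76, 8.56 and 8.79 untreated (8.70 ± 0.12) and 8.78, 8.55 and 8.62 with dexamethasone (8.65 ± 0.12). At 14 days the knockout values were 8.78, 9.04 and 9.17 untreated (8.998 ± 0.20) and 8.72, 8.38 and 9.42 with dexamethasone (8.84 ± 0.53). All 4 knockout means were below all 4 wild-type means, although the 7 neighbouring pairs of groups in order of mean all overlapped.

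The second Pmp22 probe was the dimmer one, and its group means were not ordered by genotype. Its untreated knockout mean at 14 days (6.80) lay above untreated wild type at 14 days (6.73) and at 3 days (6.44). At 3 days it read 6.31, 6.81 and 6.21 in untreated wild type and 7.18, 6.90 and 6.90 with dexamethasone. The knockout arrays at 3 days read 6.46, 6.42 and 6.09 untreated and 6.75, 6.76 and 6.91 with dexamethasone. In both genotypes the 3-day treated arrays lay above the untreated ones without overlap, which 22.6% of the tested features also did in one direction or the other in wild type and 19.2% in knockout. At 14 days the probe read 6.43, 6.68 and 7.09 untreated and 7.20, 6.92 and 6.66 treated in wild type, and 6.38, 6.97 and 7.04 untreated and 6.79, 6.53 and 7.14 treated in knockout, with overlap in both.

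Sox10 was a dim probe whose group means spanned 0.65 log2 units. Its untreated wild-type values were 4.68, 5.65 and 4.82 at 3 days (5.05 ± 0.53) and 5.14, 4.95 and 5.11 at 14 days (5.07 ± 0.10). With dexamethasone wild-type Sox10 was 5.56, 5.15 and 5.52 at 3 days (5.41 ± 0.23) and 5.58, 5.44 and 4.97 at 14 days (5.33 ± 0.32). Treated means were higher on both days while the arrays overlapped. Untreated knockout arrays read 5.09, 4.39 and 4.79 at 3 days (4.76 ± 0.35) and 4.95, 5.13 and 4.99 at 14 days (5.02 ± 0.10). With dexamethasone the knockout arrays read 5.11, 5.08 and 5.07 at 3 days (5.09 ± 0.02) and 5.67, 5.20 and 5.14 at 14 days (5.34 ± 0.29). Of the 4 treatment comparisons, the arrays did not overlap in knockout at 14 days alone, and 17.3% of all features showed such a gap there. Mal ranged from 4.35 to 5.20 over the 24 arrays, with group means from 4.66 in untreated knockout at 3 days to 5.08 in untreated wild type at 3 days.

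**Figure D1:**
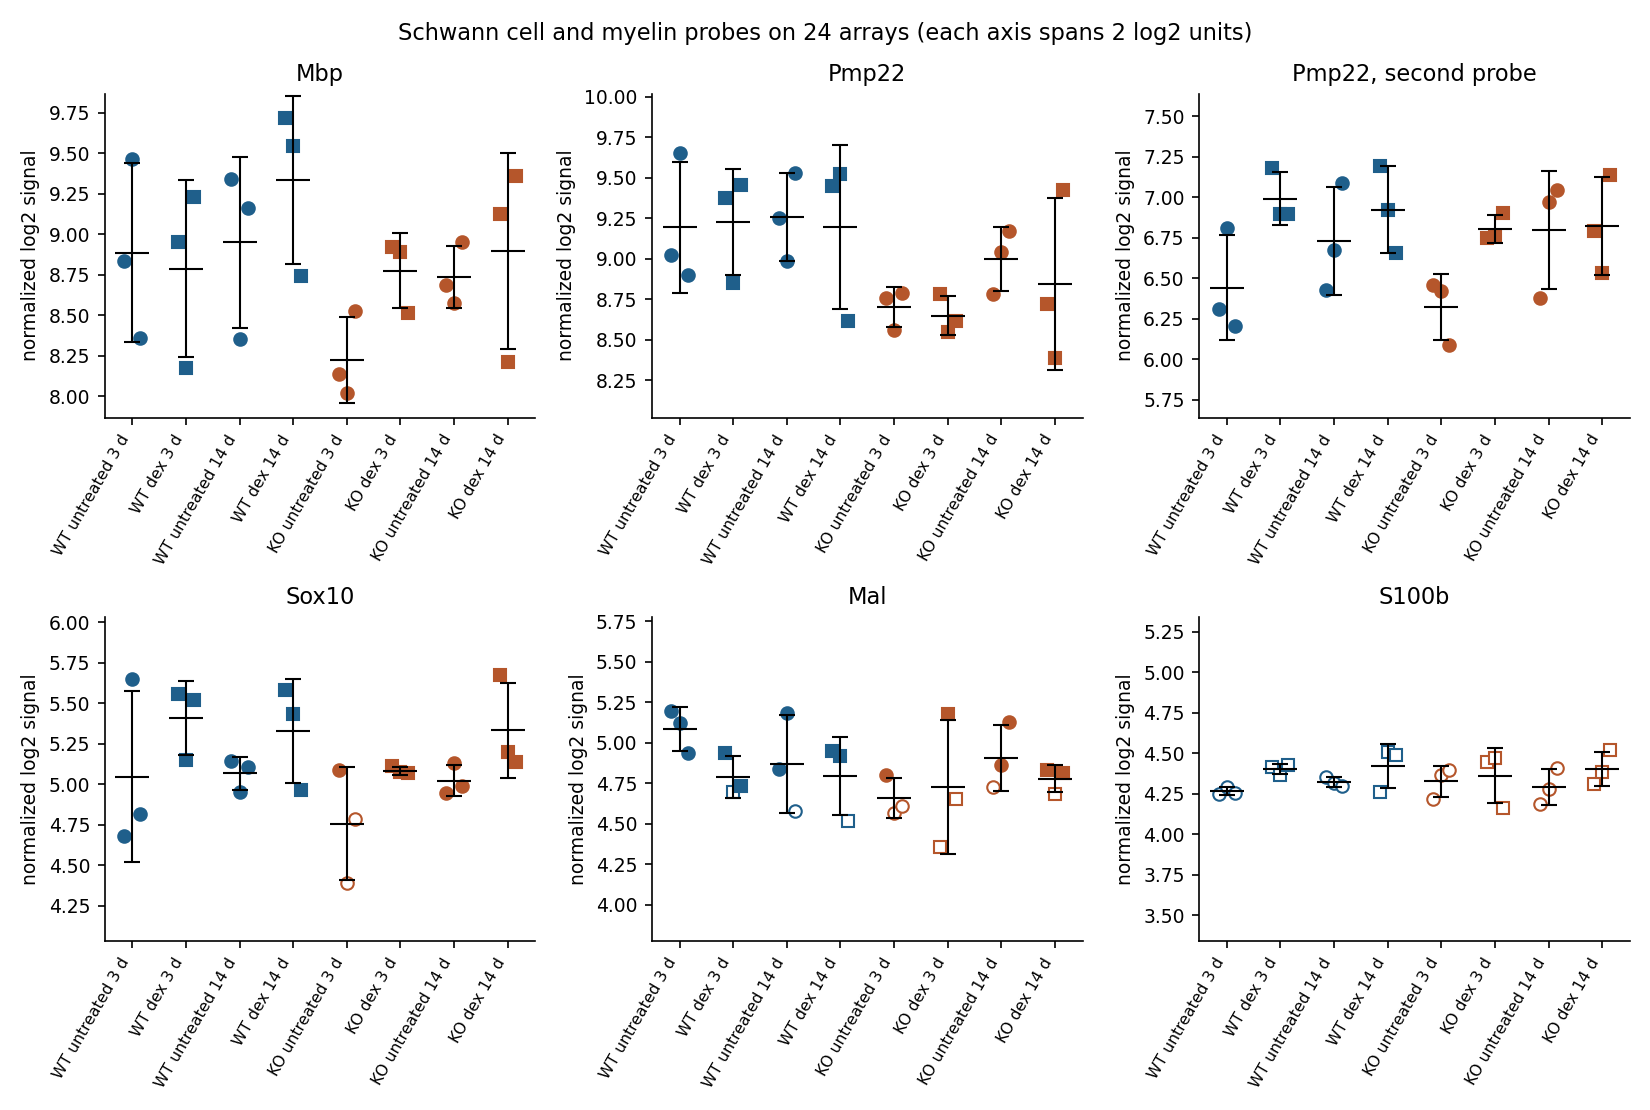
Normalized log2 signal of 6 member probes on 24 arrays, with groups on the horizontal axis, wild type in blue, knockout in orange, untreated arrays as circles and dexamethasone arrays as squares. Open symbols are arrays on which the probe was not detected, horizontal bars are means and vertical bars 1 SD of 3 arrays; Mbp spans 8.02 to 9.72, and all S100b symbols are open.

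The first question of the design was what dexamethasone does within each genotype and day. None of the 4 tested members passed the threshold in any of these 4 comparisons (0 of 4 each). Of all features, 3.87% were called in wild type at 3 days and 3% at 14 days. In knockout the shares were 5.37% at 3 days and 3.27% at 14 days. The probe that stands for each member had no unadjusted p under 0.05 in these comparisons either, against 2162, 2081, 3177 and 2322 of the 16262 features. In a fit of all 20769 kept probes, some other member probes had one without passing the adjusted threshold. These were the second Pmp22 probe at 3 days in wild type (0.55, adjusted p = 0.198) and in knockout (0.48, adjusted p = 0.201), and a pair of dim Mbp probes in wild type at 14 days, ILMN_1227299 (0.45, adjusted p = 0.215) and ILMN_2639865 (0.43, adjusted p = 0.199). Of the 5 arrays on which ILMN_1227299 was detected, 3 were the treated wild-type arrays at 14 days. It passed the detection filter only through that group, so its value there gives no support for a rise. Averaged over the 4 strata with equal weight, again 0 of 4 members passed the threshold, where 13.1% of all features did. The median change of the 4 members in that average was 0.10 on the log2 scale, and that of all features was 0.00.

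Sox10 came nearest to the threshold. Its mean log2 change with dexamethasone was 0.32 (SE 0.11, adjusted p = 0.0581), and it was higher in 4 of 4 strata, by 0.26 to 0.36. As a fold this is 1.24, with a 95% interval of 1.07 to 1.45. Without the knockout array that stood apart the log2 change was 0.32 (adjusted p = 0.0585). The call changed with the filter and with single arrays: Sox10 passed when only probes detected on at least 12 arrays were tested (adjusted p = 0.0498), and also without replicate 2 of untreated wild type at 3 days, replicate 2 of treated wild type at 3 days, replicate 3 of treated wild type at 14 days or replicate 1 of untreated knockout at 3 days. The size moved as well: the log2 change was 0.11 without background correction (adjusted p = 0.0943) and 0.16 with an offset of 50 (adjusted p = 0.0828). In the authors' value table it was 0.35 (adjusted p = 0.169).

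The other members lay farther from the threshold. Mbp had a mean log2 change of 0.25 (SE 0.16, adjusted p = 0.411), with a fold of 1.19 and an interval of 0.941 to 1.501. Its strata ran from -0.10 in wild type at 3 days to 0.55 in knockout at 3 days. In folds the intervals of these strata were wide, at 0.585 to 1.49 and 0.918 to 2.34. Without the knockout array that stood apart, Mbp had 0.68 in knockout at 3 days (adjusted p = 0.423) and 0.28 in the mean (adjusted p = 0.311). Pmp22 had a mean log2 change of -0.06 (SE 0.13, adjusted p = 0.861), with a fold of 0.960 and an interval of 0.801 to 1.15. Mal had -0.11 (SE 0.09, adjusted p = 0.565), with a fold interval of 0.814 to 1.06. Undetected S100b had a log2 difference of 0.10 between values that are both at background, and it carries no fold.

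The second Pmp22 probe was fitted apart, and the difference between the probes was not tested. It had a mean log2 change of 0.31 (SE 0.10, adjusted p = 0.0511 in a fit of all 20769 kept probes), higher in 4 of 4 strata by 0.02 to 0.55. Its interval in folds was 1.07 to 1.44, and the change was 0.30 (adjusted p = 0.0643) without the knockout array that stood apart. It passed the threshold when only probes detected on at least 12 arrays were tested (adjusted p = 0.0439) and in 6 of the fits that left out an array. Without background correction it was 0.18 (adjusted p = 0.0613), and the adjusted p was highest, at 0.115, with no filter on dim probes. Which transcript forms the probes read was not tested.

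Whether the dexamethasone effect differed between genotypes was tested as an interaction. No member passed at 3 days, where 0% of all features were called and 699 had an unadjusted p under 0.05, or at 14 days, where 0.0123% were called. For Mbp at 3 days the log2 interaction was 0.65 (SE 0.46, adjusted p = 0.996), with a fold interval of 0.811 to 3.04, and it was 0.78 (adjusted p = 1) without the knockout array that stood apart. Between 3 and 14 days the dexamethasone effect of the 4 members also gave no call, with 0.148% of features called in wild type and 0.129% in knockout.

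Knockout against wild type was the other comparison of the design. No member passed the threshold in any of its 4 strata (0 of 4 each). Of all features, 0.326% were called untreated and 0.517% with dexamethasone at 3 days. At 14 days the shares were 0.351% untreated and 0.603% with dexamethasone. In the average over the 4 strata 0 of 4 members passed and 3.69% of all features did. All 4 members had negative estimates in that average, with a median of -0.25 on the log2 scale against 0.01 for all features.

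Pmp22 had a mean log2 difference of -0.42 between knockout and wild type (SE 0.13, adjusted p = 0.0637). This is 0.747 of the wild-type level, with an interval of 0.623 to 0.895, and the estimate was negative in 4 of 4 strata, from -0.58 to -0.26. The value was -0.42 (adjusted p = 0.0833) without the knockout array that stood apart. Pmp22 passed under median scaling in place of quantile normalization (-0.51, adjusted p = 0.0125), with array weights (-0.36, adjusted p = 0.0368), and without replicate 3 of treated wild type or of treated knockout at 14 days (-0.49 each). It did not pass in the authors' value table (-0.43, adjusted p = 0.123) or with no filter on dim probes (-0.42, adjusted p = 0.138). The second Pmp22 probe had -0.09 (SE 0.10, adjusted p = 0.699), with negative estimates in 3 of 4 strata.

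Mbp had -0.33 (SE 0.16, adjusted p = 0.269) for knockout against wild type, negative in 4 of 4 strata, from -0.66 untreated at 3 days to -0.01 with dexamethasone at 3 days. Its fold interval was 0.630 to 1.00. The value nearest 0 turned to 0.12 without the array that stood apart. Sox10 had -0.16 (adjusted p = 0.428) and Mal -0.12 (adjusted p = 0.51). Within strata, Mal at 3 days without treatment (-0.43, adjusted p = 0.701) and Pmp22 at 3 days with dexamethasone (-0.58, adjusted p = 0.404) had an unadjusted limma p under 0.05 and did not pass the adjusted threshold. Without the array that stood apart the latter was -0.56 (adjusted p = 0.601). Mal was detected on 1 of the 3 untreated knockout arrays at 3 days. Its difference there ranged from -0.43 to -0.13 over 11 alternative settings, single arrays left out aside. Of the dim Mbp probes, ILMN_1227299 had -0.62 with dexamethasone at 14 days (adjusted p = 0.107) and -0.21 in the mean (adjusted p = 0.163), and ILMN_2639865 had -0.38 with dexamethasone at 14 days (adjusted p = 0.347), none past the threshold. At 14 days with dexamethasone, ILMN_1227299 was detected on 0 of 3 knockout arrays and on all 3 wild-type ones. It passed the detection filter only through those wild-type arrays, so its differences give no support for a genotype effect. Genotypes did not overlap for 2 of 4 members untreated at 3 days (Pmp22 and Mal, both lower in knockout), where 13.2% of all features did not, and for 2 of 4 with dexamethasone at 3 days (Pmp22 and Sox10, both lower), where 15.2% did not. At 14 days this held for 0 of 4 members in either treatment, against 13.9% of features untreated and 18.5% with dexamethasone. By the second Pmp22 probe the genotypes overlapped at 3 days, both untreated and with dexamethasone.

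The 14-day untreated arrays were also set against the 3-day ones. No member passed in wild type (0.16% of features called) or in knockout (0.00615% called). In knockout Mbp was higher at 14 days by 0.51 (SE 0.33, adjusted p = 0.845) without overlap of the arrays, a gap that 9.91% of features had.

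**Figure D2:**
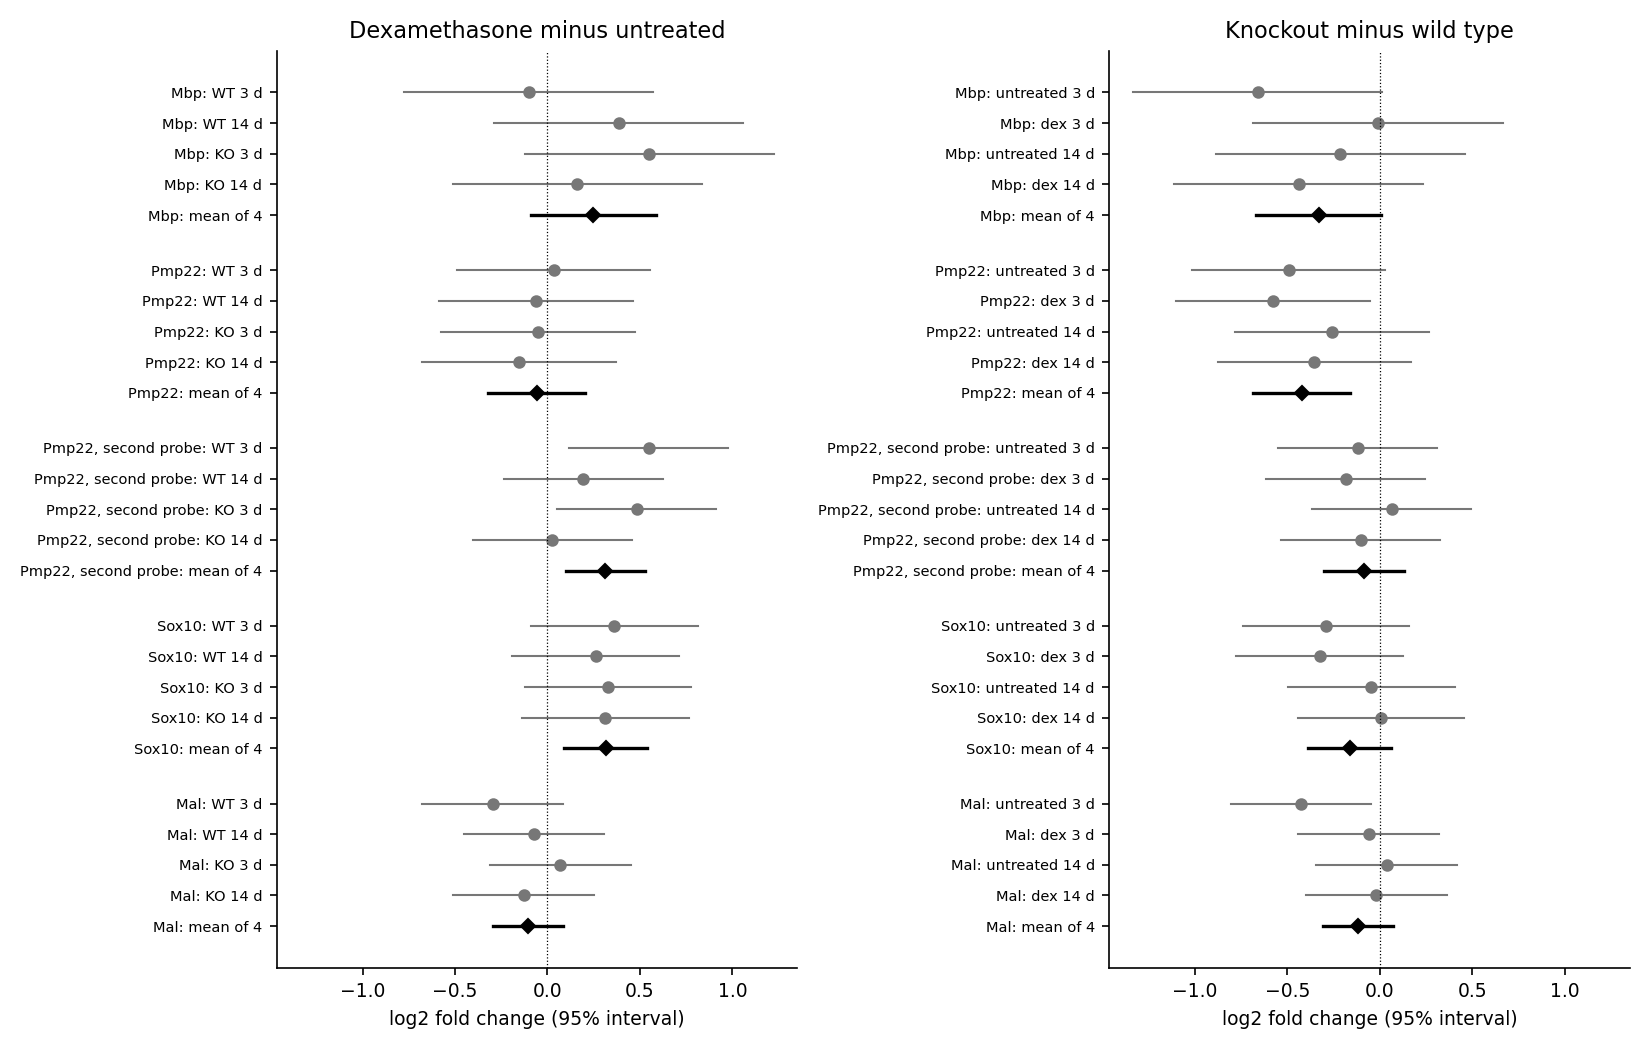
Log2 fold changes of 5 member probes, as points with 95% intervals, for dexamethasone minus untreated on the left and knockout minus wild type on the right; grey circles are single strata and black diamonds the mean of 4 strata. The Pmp22 diamonds lie at -0.06 and -0.42, those of its second probe at 0.31 and -0.09, and the Sox10 diamonds at 0.32 and -0.16.

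Mbp and the brighter Pmp22 probe varied together between the arrays of a group. Each array's deviation from its own group mean was taken for the 8 kept member probes, and all 28 pairs were correlated over 24 arrays, with 100000 permutations within groups and two-sided p-values. For Mbp and Pmp22 this gave Pearson's r = 0.86 (permutation p = 0.0002, adjusted p = 0.0056 over the 28 pairs) and Spearman's rho = 0.82 (permutation p = 0.00032, adjusted p = 0.00896). They lay on the same side of their group means on 19 of 24 arrays. Replicate 2 of treated wild type at 3 days was below its group for both genes, by 0.61 for Mbp and 0.38 for Pmp22. Replicate 2 of untreated wild type at 3 days was above its group by 0.58 for Mbp and by 0.46 for Pmp22.

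The relation was r = 0.84 without the 2 arrays farthest from the median of Pmp22 (replicate 3 of treated wild type and of treated knockout at 14 days). Without the whole treated knockout group at 3 days, which holds the array that stood apart, r was 0.87. The log2 values themselves, without removal of group means, gave r = 0.76. All arrays share processing and the normalization over all probes, and the members come from the same RNA preparation on each array.

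Sox10 followed the same arrays more loosely. Its r was 0.61 with Mbp (permutation p = 0.0207, adjusted p = 0.193; rho = 0.60, permutation p = 0.0204, adjusted p = 0.143) and 0.57 with Pmp22 (permutation p = 0.0351, adjusted p = 0.246; rho = 0.62, permutation p = 0.0167, adjusted p = 0.143). Neither passed after adjustment, and without the 2 farthest arrays r was 0.58 and 0.69. The Pmp22 probes went together with r = 0.71 (permutation p = 0.00266, adjusted p = 0.0372; rho = 0.72, permutation p = 0.00354, adjusted p = 0.0496), and with r = 0.65 without the 2 farthest arrays. Mbp and the second Pmp22 probe had r = 0.44 (permutation p = 0.0868, adjusted p = 0.389). Their rho was 0.40 (permutation p = 0.13, adjusted p = 0.429), and they lay on the same side on 13 of 24 arrays. Of all 16261 other features, 1.02% had an r above 0.5 with Mbp, 2% with Pmp22 and 1.13% with Sox10.

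**Figure D3:**
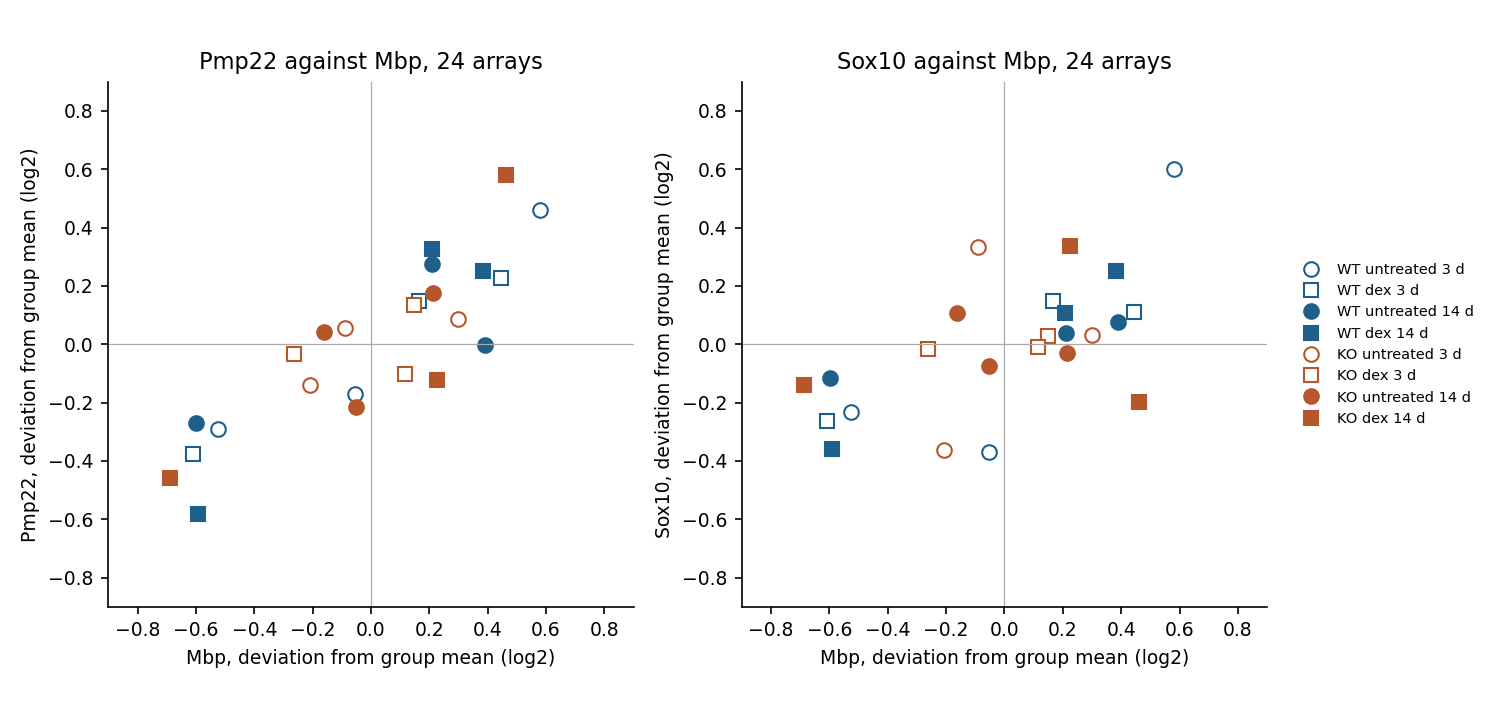
Deviation of each of 24 arrays from its group mean in log2 units, Mbp on the horizontal axis and Pmp22 (left) or Sox10 (right) on the vertical one; wild type is blue, knockout orange, circles are untreated, squares dexamethasone, open symbols 3 days and filled symbols 14 days. Pmp22 rises with Mbp across the groups (r = 0.86), and Sox10 is more scattered (r = 0.61).

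Among named features, those most like each member over the 24 arrays were listed without regard to function. For log2 values of Pmp22 these were Apoc1, an apolipoprotein (r = 0.79), Mbp (0.76) and Bcas1, in brain a marker of newly myelinating oligodendrocytes (0.74). For Mbp they were Pmp22, Bcas1 (0.69) and Apoc1 (0.69). Of these, Apoc1 was lower in knockout by 0.78 on the log2 scale (adjusted p = 0.00383), and Bcas1 had -0.30 (adjusted p = 0.145). By deviations from group means, Rbm12, an RNA-binding protein gene, followed Mbp (0.77) and Pmp22 (0.79), with Cd1d1, a lipid antigen presenter, next for Pmp22 (0.79) and Bcas1 next for Mbp (0.73). Sox10 was most like Ift43 (0.68), Vat1l (0.67) and Aatk (0.66) in log2 values, and like Leprot (0.77), Gstm1 (0.75) and Ift43 (0.69) in deviations. For Mal the nearest were Rnd3 (0.66), H2-Oa (0.62) and Ssr2 (0.61) in log2 values, and Trim52 (0.82), Arhgap6 (0.77) and Sfxn5 (0.77) in deviations, the last 3 detected on 4, 8 and 10 arrays.

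Further genes of the sheath were read from a list. Of 17 other peripheral myelin proteins, 13 had a probe and 9 were tested. Tested genes of the list gave 0 calls with dexamethasone in each single stratum, where 3% to 5.37% of all features were called. In the mean of the 4 strata 2 of 9 rose and 0 fell, with a list median of 0.17, where 13.1% of all features were called. Itgb4, the integrin subunit by which Schwann cells hold their basal lamina, rose by 0.41 (SE 0.13, adjusted p = 0.0398). Ncmap, a small myelin membrane protein, rose by 0.26 (SE 0.08, adjusted p = 0.0215), detected on 5 arrays alone. Dag1, the dystroglycan gene that muscle fibres also express strongly, had 0.17 (adjusted p = 0.252), and Cnp, an enzyme of non-compact myelin, had 0.14 (adjusted p = 0.378). Knockout against wild type gave 0 of 9 calls in the mean, with a list median of -0.13, where 3.69% of all features were called.

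Schwann cell regulators and markers of non-myelinating cells gave no call. Of 21 listed genes, all with a probe, 12 were tested, and Egr2, the driver of myelination, Erbb3, the neuregulin receptor, and Gfap were among those left out by the detection filter. Dexamethasone gave 0 of 12 calls in each stratum, where 3% to 5.37% of all features were called. In the mean it gave 0 of 12, with a median of 0.03, where 13.1% of all features were called. Genotype gave 0 of 12 in the mean, with a median of -0.02, where 3.69% of all features were called. Scn7a, a sodium channel gene of non-myelinating Schwann cells, had 0.31 with dexamethasone (SE 0.15, adjusted p = 0.235). Ncam1, an adhesion molecule, had 0.09 (adjusted p = 0.752). Axon markers numbered 13, of which 6 were tested. For either factor 0 of 6 were called in the mean, against the same 13.1% and 3.69% of all features. Mapt had 0.03 (adjusted p = 0.917) and Uchl1 -0.18 (adjusted p = 0.399) for dexamethasone.

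Myelin is rich in cholesterol and long-chain lipids, and the enzymes that make them were read as a list of 22, with 17 tested. With dexamethasone 1 of 17 rose and 2 fell in the mean, with a median of -0.02, and 13.1% of all features were called. Fasn, the fatty acid synthase gene that fat cells also use, rose by 0.64 (SE 0.20, adjusted p = 0.0301). Hmgcs1, an early enzyme of the cholesterol pathway, fell by 0.31 (SE 0.07, adjusted p = 0.0029), and Fdps, a later one, fell by 0.25 (SE 0.07, adjusted p = 0.0137). Hmgcs1 was the one gene of the list called in a single dexamethasone stratum, wild type at 3 days, where it fell by 0.49 (SE 0.14, adjusted p = 0.0488). In that stratum 3.87% of all features were called. Hmgcs1 was also higher in knockout by 0.25 in the mean (SE 0.07, adjusted p = 0.0393), where Pmp22 and Mbp had negative estimates. It was the one call among 17 for genotype in that mean, against 3.69% of all features.

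Several lipid genes followed Pmp22 from array to array. Of the 17, 6 had a deviation r above 0.5 with Pmp22 (35.3%, against 2% of all features), and the list's median r was 0.34 against -0.02. These were Scd2, a desaturase (0.79), Hmgcs1 (0.62), Mvd (0.59), Sqle, the squalene epoxidase gene (0.58), Elovl1, which lengthens fatty acids (0.53), and Cers2, a ceramide synthase (0.52). With Mbp there were 4 of 17 (Scd2 at 0.71, Hmgcs1 at 0.55, Mvd at 0.52 and Sqle at 0.51). Of the other peripheral myelin proteins, 1 of 9 passed 0.5 with each gene, Itgb4 with Pmp22 (0.65) and Ncmap with Mbp (0.58), and of the regulators Scn7a with Mbp (0.50). These genes were taken up for their correlation after the values were seen, and the counts are a description without a test.

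Markers of other cell types were set against the same deviations. High shares with Pmp22 were not particular to the lipid list (35.3%, median r 0.34). Of 10 adipocyte markers tested, 3 (30%) had a deviation r above 0.5 with Pmp22 and 0 with Mbp. Their median r with Pmp22 was 0.37. Of 12 fibroblast markers 3 (25%) did with Pmp22 and 1 with Mbp, with a median r of 0.32 with Pmp22. Markers of the axon (6), macrophage (8), satellite cell (5), muscle fibre (9) and slow fibre (8) gave 0 with either gene. Of 12 endothelial markers 1 did with Pmp22, 1 with Mbp and 3 with Sox10. With 7 perineurium and endoneurium markers the counts were 2 with Pmp22 (Slc2a1 at 0.54 and Cldn1 at 0.51) and 0 with Mbp. The share with Pmp22 was 28.6% and the median r 0.35. What part these cells have in the level of Pmp22 was not tested.

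**Figure D4:**
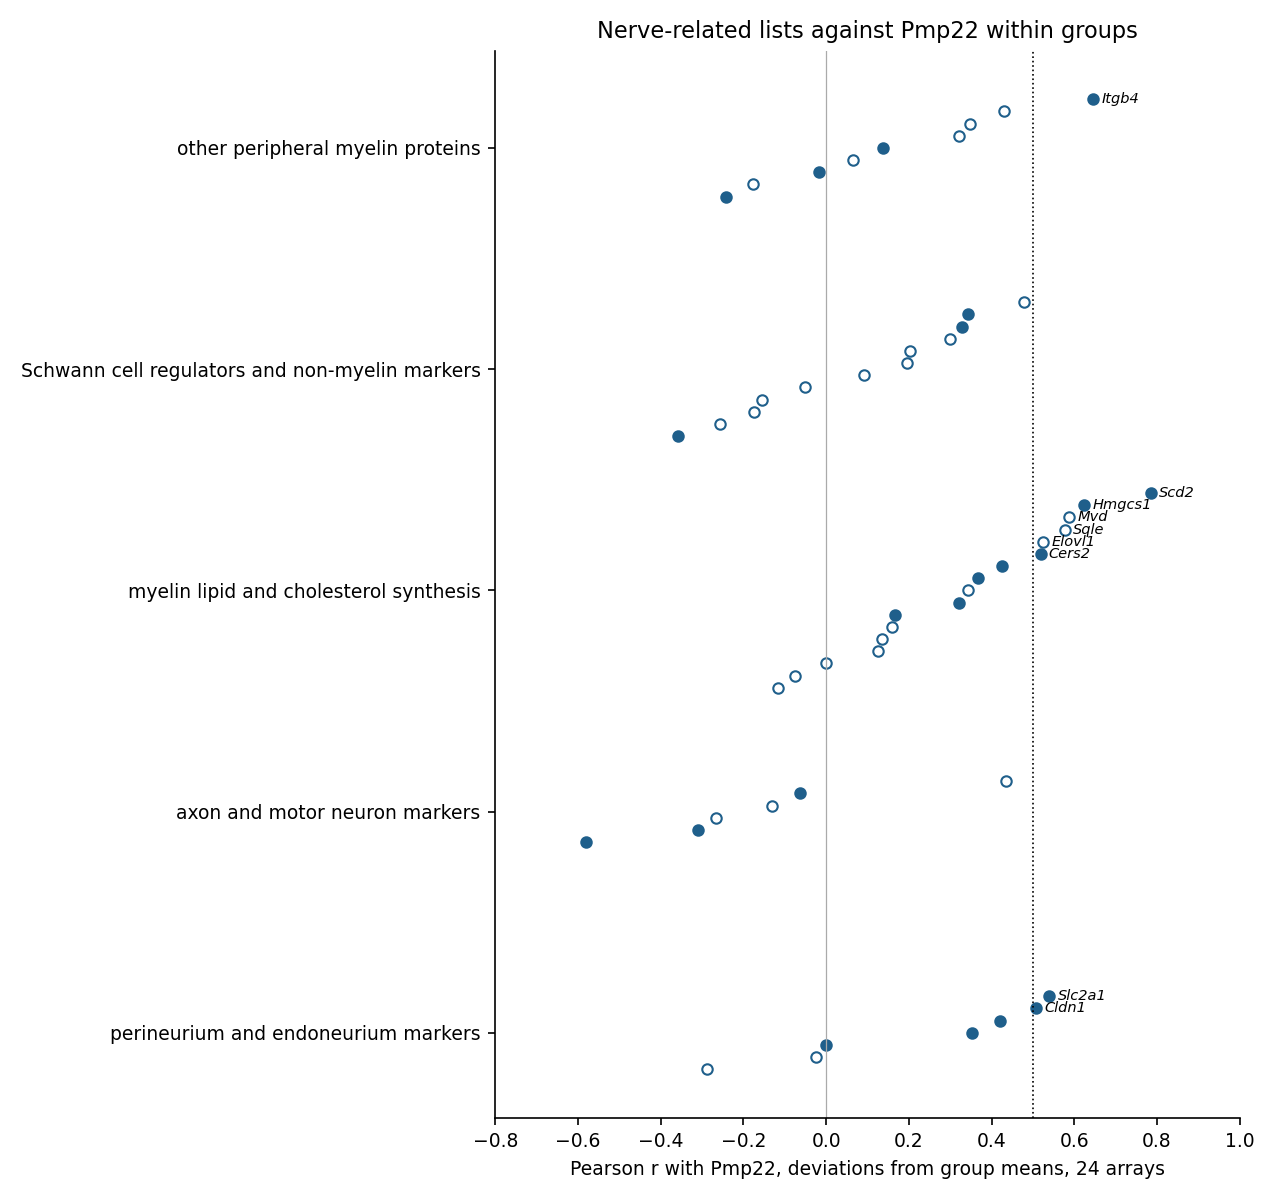
Pearson's r over 24 arrays between deviations from the group mean of Pmp22 and of each tested gene of 5 nerve-related lists, one row per list; filled symbols were detected on all 24 arrays and open ones on fewer. Genes to the right of the dotted line at 0.5 are named, and 6 of them belong to the 17 lipid and cholesterol genes, against 2% of all features. Adipocyte and fibroblast markers are not drawn.

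Markers of neighbouring cells of the nerve and the muscle were read in the same mean over strata, where 13.1% of all features were called. Among 7 perineurium and endoneurium markers, 2 rose and 0 fell, with a list median of -0.07. Apod, a lipid carrier of endoneurial fibroblasts, rose by 1.17 (SE 0.12, adjusted p = 1.87e-07), and singly in wild type at 3 days (1.83), in wild type at 14 days (0.95) and in knockout at 3 days (1.41). Sox9 rose by 0.43 (SE 0.09, adjusted p = 0.00129). Of 12 fibroblast markers 9 fell and 0 rose, and Col1a1, the collagen I gene, fell by 2.98 (adjusted p = 7.07e-14). Of 10 adipocyte markers 6 rose, led by Lep, the leptin gene, with 1.29 (adjusted p = 0.000489), and of 8 macrophage markers 5 fell, led by Mrc1, the mannose receptor gene, which fell by 0.83 (adjusted p = 8.73e-07). Endothelial markers gave 1 rise and 2 falls among 12, and 9 muscle fibre markers gave 1 of each. Of 5 satellite cell markers 1 rose and 2 fell, and of 8 slow fibre markers 1 rose and 0 fell. These shifts stood beside the member values in the same RNA, and their part in the members' estimates was not tested.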

How the data were processed

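Total RNA of triceps surae was extracted with Trizol and an RNeasy kit and labelled as biotinylated cRNA, per the labels' protocols; the submitters' processing notes list BeadStudio 3.2.3. Per the file headers, the deposited non-normalized table held a signal intensity and a detection p-value for every probe on every array. The authors' processed table, deposited separately, held a linear intensity that was background-subtracted and quantile-normalized, as judged from the values, and served as an alternative with a floor at 16. Its replicate numbers differ from those of the first table for 11 arrays in 5 groups. Bead counts were not used here, and precision is limited by the small number of arrays.

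The neqc function of limma 3.58.1 (R 4.3.3) removed background through the detection p-values, applied quantile normalization and took log2 after an offset of 16. Probes detected (p under 0.05) on at least 3 of 24 arrays were kept (20769), and each named gene was represented by its brightest probe (16262 features). Of all probes 29976 had 1 symbol, 10 several and 16646 none. Dimmer probes of a member come from a fit of all kept probes, and filtered probes from a fit of all probes. Limma's lmFit and eBayes were fitted to 8 group means (16 residual degrees of freedom), with Benjamini-Hochberg adjustment within each comparison.

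On simulated data with 100 features changed at each size among 16262 features, 36% of 1.5-fold and 72% of 2-fold changes were recovered for dexamethasone in wild type at 3 days, 93% and 100% for the mean of dexamethasone, and 89% and 99% for the mean of genotype. False calls numbered 6, 8 and 11. The changed features were drawn at random with independent noise. These shares are therefore averages over features and do not give the recovery for any one member.

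The members and the gene lists were chosen with earlier results of these data known. All members are named in each comparison. Of the myelin protein and regulator lists, called genes and up to 4 of highest signal were named, of other lists up to 3 called genes by size or 2 of highest signal, and the 3 named features most like each member. Genes named for a correlation above 0.5, and filtered genes named as such, were added after their values were seen. Replicate numbers did not pair the samples.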

Additional observations from a re-analysis of the deposited data

How the results depend on the processing

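Across the alternatives, 1010 log2 changes of members were computed; 945 kept their direction and side of the threshold, 16 passed the threshold and 49 changed sign, and 321 of 330 counts of called members stayed the same. The cause was not tested for any of them. The count for the mean of dexamethasone became 1 with a filter of 12 arrays and ranged from 0 to 1 when single arrays were left out (Sox10). That for the mean of genotype became 1 with median scaling and 1 with array weights, and ranged from 0 to 1 when single arrays were left out (Pmp22). With the replicate block the counts remained 0 and Sox10 had an adjusted p of 0.0616 for dexamethasone and Pmp22 0.072 for genotype; same-numbered arrays of different groups had a median correlation of deviations of 0.0072 over 84 pairs.

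Signs turned as follows. With array weights the log2 change was -0.21 for Pmp22 with dexamethasone in wild type at 3 days and -0.12 for its second probe in knockout at 14 days, and for genotype 0.29 (Mbp, treated, 3 days), 0.0138 (Mbp, untreated, 14 days), 0.28 (Mal, treated, 3 days), 0.0047 (Mal, treated, 14 days) and 0.0071 (Mal, mean). With median scaling it was 0.0415 (Pmp22, dexamethasone, knockout, 3 days), -0.0332 (second probe, dexamethasone, knockout, 14 days), and for genotype of Mal 0.18 (treated, 3 days) and -0.0089 (untreated, 14 days). In the authors' value table Mal had genotype values of 0.11 (treated, 3 days), -0.0338 (untreated, 14 days) and 0 (treated, 14 days).

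Leaving out single arrays turned further signs. Dexamethasone ranges were -0.11 to 0.26 (Pmp22), -0.36 to 0.20 (Mbp) in wild type at 3 days; -0.22 to 0.23 (Pmp22) and -0.217 to 0.0858 (Mal) in wild type at 14 days; -0.15 to 0.26 (Mal) in knockout at 3 days; -0.445 to 0.075 (Pmp22), -0.0703 to 0.50 (Mbp) and -0.18 to 0.17 (second Pmp22 probe) in knockout at 14 days; and -0.131 to 0.0144 (Pmp22) in the mean. Genotype ranges were -0.474 to 0.011 (Sox10) and -0.239 to 0.0624 (second probe) untreated at 3 days; -0.31 to 0.21 (Mbp) and -0.29 to 0.13 (Mal) treated at 3 days; -0.11 to 0.20 (Mal) and -0.0864 to 0.275 (second probe) untreated at 14 days; and -0.158 to 0.0571 (Mal), -0.17 to 0.13 (Sox10) and -0.261 to 0.0403 (second probe) treated at 14 days. Signal over background limits Mal, Sox10 and S100b.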
